A study of Mus musculus with 24 samples.

Results

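The comparison is of 2 mouse tumour cell lines that received only the solvent DMSO for 3 h: E0771, labelled as a breast adenocarcinoma, and MC38, labelled as a colon adenocarcinoma. Members were all libraries whose labels name DMSO, 3 per line, so 6 of the 24 libraries of the series. The other 18 are the same lines after 3 h with 2.5 µM RG6146 (an inhibitor of BET bromodomains, which bind acetylated histones), with 10 ng/mL of the cytokine TNF, or with both, called the combination here, again 3 replicates each. The study asked how RG6146 changes the response of tumour cells to TNF, and the DMSO libraries hold the state from which each line started. Each line is 1 cultured line whose labels name no other cells, so a difference between them belongs to these 2 lines and cannot be told apart from a difference between their tissues of origin. A growth protocol shared by all samples names MC38-Ova cells, that is MC38 with an ovalbumin gene, while each sample's own label gives E0771 or MC38, and that label was used. Whether replicates came from separate cultures is not stated, and p-values therefore refer to the spread among libraries alone, which can be technical. The test estimated that spread from all 24 libraries in 8 groups, the treated ones included.

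Tumour lines kept in culture retain part of the gene activity of the tissue they came from and lose or gain other parts. Epithelial cells are known for E-cadherin, EpCAM and keratins, mesenchymal cells for vimentin and fibronectin, and HOX genes record the position along the body axis. Type I interferon acts through its receptor, JAK kinases and a factor complex that includes STAT2 and IRF9 and binds the interferon-stimulated response element in promoters. TNF acts through its receptors and the kinase RIPK1 on NF-kB, which raises survival and inflammatory genes, and, when survival proteins are lacking, on caspase-8.

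RNA was read from the 3′ ends of polyadenylated transcripts, and the deposited values are read counts per gene. They summed to between 5412600 and 9673118 per DMSO library. Values are given as CPM, which are counts relative to the library total of tested genes with TMM factors applied, in the order of replicates 1 to 3, and differences as log2 values of E0771 minus MC38 ± SE from edgeR's quasi-likelihood test, with Benjamini-Hochberg adjusted p over all tested genes. Calls were made where the adjusted p was below 0.05. MC38 replicates lay farther from each other (0.547 to 0.618, root mean square log2 distance to the other replicates) than E0771 replicates (0.361 to 0.383), and the share of mitochondrial ribosomal RNA was 0.609% in MC38 replicate 2 but 2.53% to 2.96% in the other 5. No pair of replicates agreed within sampling noise: the chi-square per gene between 2 replicates was 2.34 to 5.97 in E0771 and 14.5 to 38.1 in MC38.

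Most of the genes that could be tested differed between the 2 lines. Of 14058 genes, 8257 were called (58.7%), with 4060 higher in E0771 (28.9%) and 4197 lower (29.9%). At least 2-fold differences were found for 4493 (32.0%), of which 2275 were higher in E0771, and at least 8-fold differences for 1466, of which 663 were higher in E0771. The 3 libraries of one line did not overlap with the 3 of the other in 7890 of the called genes and in 8901 of all tested genes. The plot of mean CPM in both lines shows genes of high level in one line that lie at the floor of the other.

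**Figure D1:**
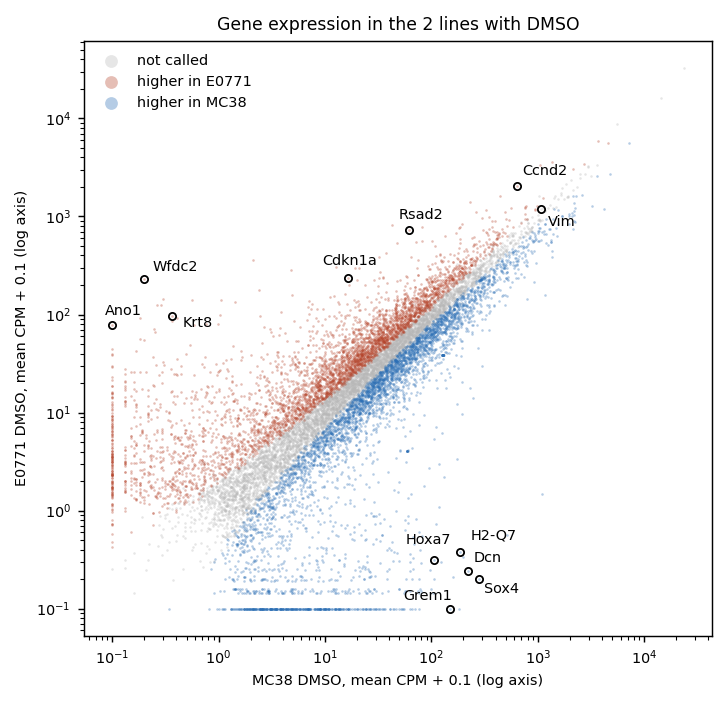
Mean CPM + 0.1 of each tested gene in the 3 MC38 DMSO libraries (x, log axis) and the 3 E0771 DMSO libraries (y, log axis), coloured by the call of edgeR's test. Wfdc2, Ano1 and Krt8 lie at the upper left, and Grem1, Sox4, Dcn, H2-Q7 and Hoxa7 at the lower right, while Vim lies near the diagonal.

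The same contrast was made in the libraries with RG6146, TNF and the combination, which share no library with the DMSO contrast. There 8612 (61.3%), 8587 (61.1%) and 8261 (58.8%) of the genes were called. Of the 8257 genes called with DMSO, 6918 (83.8%) were called again in the same direction with RG6146, 6707 (81.2%) with TNF and 6741 (81.6%) with the combination, and 5638 (68.3%) in all 3. Opposite calls were found for 18, 33 and 25 genes. One library of these contrasts goes against its label in part. The 65 genes defined below as detected in E0771 only summed to 162 CPM in MC38 combination replicate 2, whereas their sum was 0.965 to 7.28 CPM elsewhere in MC38 (11 libraries) and 1494 to 2091 CPM in E0771 (12 libraries). Without this library, 6618 of the 8257 genes were called again in the same direction with the combination, and the DMSO contrast called 8306 genes.

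Gene lists were set beside the background of all tested genes, whose median difference was 0.00. This centre is set in part by the scaling, and it was -0.06 with upper-quartile scaling. Of the called genes 46.0% were then higher in E0771, against 49.2% with TMM. Of that background 58.7% were called, 28.9% higher and 29.9% lower in E0771. The counts of each list below are to be read beside these shares. In the plot of list members called, interferon-stimulated genes, Notch pathway genes, immune ligands and glycolysis genes lean to E0771, and HOX genes, sterol synthesis genes and the genes around Cdkn2a lean to MC38. TNF receptor complex and NF-kB genes and MHC class I genes are split between both sides. A gene that passed the filter on low counts only through its higher line had to differ, so where many members of a list were not tested, the count over the tested ones describes those genes alone.

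**Figure D2:**
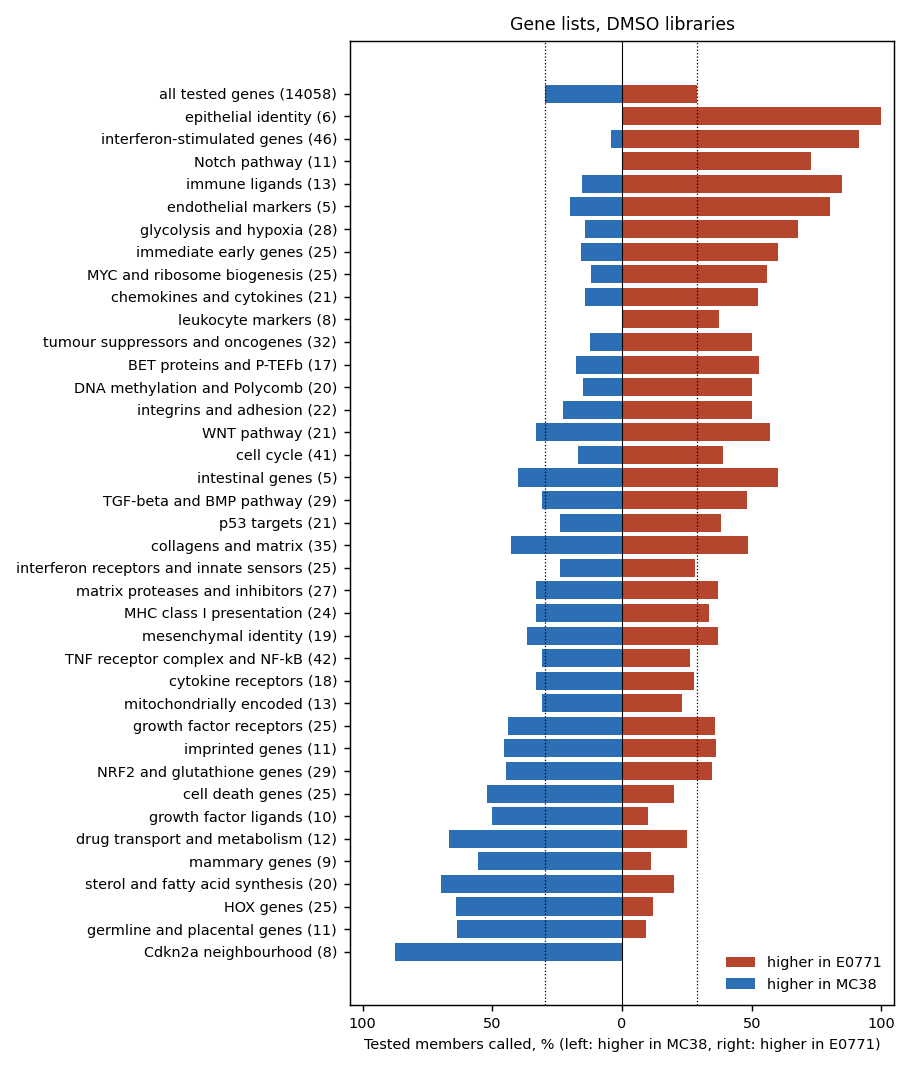
Share of the tested members of each list (number in brackets, lists of at least 5) that were called higher in E0771 (right, red) or higher in MC38 (left, blue), in percent, with DMSO. Dotted lines mark the shares of all 14058 tested genes, 28.9% higher and 29.9% lower in E0771. Members that did not pass the filter on low counts are not shown.

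The labelled epithelial origin was checked first. E-cadherin and EpCAM transcripts were at the floor of both lines. Cdh1 (E-cadherin) had 0.767, 0.269 and 0.510 CPM in E0771 and 0.180, 0.297 and 0 CPM in MC38, and Epcam had 2, 0 and 0 counts in E0771 and none in MC38. Neither gene passed the filter, and 23 of the 29 listed epithelial genes did not, among them Krt18, Krt19, Cldn7, Grhl2 and Esrp1. In bulk RNA, fewer cells with a transcript and less of it per cell cannot be told apart. The 6 tested members were higher in E0771, 5 of them at least 2-fold. A member at the floor of MC38 had to be higher in E0771 to pass. Krt8, which encodes a keratin of simple epithelia, had 85.1, 102 and 100.04 CPM in E0771 and 0, 0.198 and 0.603 CPM in MC38. Its groups did not overlap, and the difference was 8.38 ± 0.60 (adjusted p = 4.85e-11). Its partner keratin gene Krt18 had 0, 0 and 0.340 CPM in E0771 and none in MC38. St14, which encodes the membrane protease matriptase, had 6.75, 8.33 and 11.4 CPM against 0, 0.198 and 0.151 CPM.

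Mesenchymal genes were detected in both lines, with as many called in one direction as in the other. Of 19 tested, 7 were higher and 7 lower in E0771 (median 0.15). Vim, the gene of the intermediate filament vimentin, had 1100.0, 1275 and 1178 CPM in E0771 and 1233, 1112 and 863 CPM in MC38, groups that overlap (0.15 ± 0.21, adjusted p = 0.559). The repressor gene of E-cadherin Zeb1 had 29.5, 31.3 and 34 CPM in E0771 and 43.3, 28.8 and 50.8 CPM in MC38, also overlapping (-0.37 ± 0.19, adjusted p = 0.103, or -0.58 and adjusted p = 0.0108 without MC38 replicate 2), whereas 2 other repressor genes were called higher in E0771, Twist1 by 1.67 ± 0.24 and Snai1 by 1.40 ± 0.43. Snai2 was lower by the same test (-3.46 ± 0.31). N-cadherin separated the lines. Cdh2 had 0 counts in all 3 E0771 libraries and 32, 21.9 and 26.8 CPM in MC38, which is at least 171-fold higher against 3 counts over the 3 libraries. The matrix protein gene Fn1 (fibronectin) was lower in E0771 as well, with 0.921, 2.28 and 3.06 CPM against 117, 135 and 139 CPM (-5.97 ± 0.22, adjusted p = 9.65e-16). Acta2, which encodes the actin of smooth muscle and myofibroblasts, went the other way, with 18, 16 and 15.1 CPM against 0, 0.494 and 0.302 CPM (5.64 ± 0.37).

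Few genes of the 2 tissues of origin were detected. Among 24 mammary genes 9 were tested, and 5 were lower in E0771, the breast line, against 1 higher. Gata3, a transcription factor gene of the luminal mammary epithelium, had 0, 0.134 and 0.510 CPM in E0771 and 8.08, 6.43 and 9.80 CPM in MC38 (-5.19 ± 0.55, adjusted p = 2.96e-08). Tfap2c, another factor gene of that epithelium, had 1 count in the 3 E0771 libraries and 15.1, 19.8 and 19.8 CPM in MC38. Both genes were thus near the floor of the line labelled breast. The oestrogen receptor gene Esr1 had 4.30, 5.77 and 3.74 CPM in E0771 and 5.21, 3.95 and 3.92 CPM in MC38 (0.10 ± 0.22, adjusted p = 0.722), and the basal keratin gene Krt14 had at most 2 counts in any library. Tbx3, a factor gene of mammary development, was the 1 member called higher in E0771 (0.95 ± 0.12). Of 30 intestinal genes only 5 were tested. Cdx2, the gene of the intestinal master regulator, had 0 counts in all 6 libraries. Its relative Cdx1 had 0.153, 0.403 and 0.340 CPM in E0771 and 0, 0 and 0.302 CPM in MC38, and Vil1, which encodes the brush border protein villin, 0.153, 0.269 and 0.170 CPM in E0771 and 0, 0.0989 and 0 CPM in MC38. Lgr5, a marker of intestinal stem cells, reached at most 1.53 CPM in any of the 6. The tested members included Cdh17 and Sox9, higher in E0771, and Ephb3 and Ephb2, lower in E0771. Sox9 had 708, 679.9 and 718 CPM in E0771 and 406, 413 and 372 CPM in MC38 (0.82 ± 0.11).

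HOX genes, homeobox factors that lie in 4 clusters and set position along the body axis, gave a pattern that differed by cluster. Of 39 genes 25 were tested, 16 were lower in E0771 and 3 higher (median -1.88). All 7 tested genes of the Hoxa cluster were lower in E0771. The 11 Hoxa genes summed to 10.3 to 13.2 CPM in E0771 and 207 to 222 CPM in MC38. Hoxa7 had 0.153, 0.134 and 0.340 CPM in E0771 and 101, 117 and 99.9 CPM in MC38, and Hoxa9 1.84, 0.671 and 0.851 CPM in E0771 and 29.1, 30.2 and 26.4 CPM in MC38 (-4.66 ± 0.29, adjusted p = 5.72e-12). Hoxa4, Hoxa5 and Hoxa11 had no count in E0771, and Hoxa11 was at least 159-fold higher in MC38. Hoxa10 was still counted in every E0771 library, with 10.6, 8.73 and 11.4 CPM against 26.4, 19.6 and 38 CPM.

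The Hoxd cluster summed to more in E0771, 66.4 to 70.1 CPM against 39.7 to 48.7 CPM. Hoxd10 had 24.4, 22 and 22.3 CPM in E0771 and 2.52, 1.88 and 2.26 CPM in MC38 (3.38 ± 0.30, adjusted p = 1.31e-09), and Hoxd9 24.1, 25.6 and 23.5 CPM in E0771 and 9.34, 12.4 and 12.7 CPM in MC38 (1.08 ± 0.19). Both were higher in every E0771 library than in any MC38 library. Hoxd13, at the far end of the same cluster, was lower in E0771 (0, 0.269 and 0.170 against 5.39, 8.50 and 5.28 CPM). In the Hoxc cluster, Hoxc6 was higher in E0771 (0.66 ± 0.19), and Hoxc8 to Hoxc13 were lower where tested: Hoxc9 had 3.99, 2.95 and 2.89 CPM against 27.1, 30.6 and 34.4 CPM, Hoxc10 0.460, 0.269 and 0 against 19, 25.8 and 28.7 CPM, and Hoxc11 no count against 21.7, 26.8 and 30.0 CPM. The call of Hoxc8 was lost without E0771 replicate 2 (adjusted p = 0.0571). Hoxb9 had at most 2 counts in any library, and the whole Hoxb cluster summed to 6.47 to 8.19 CPM in E0771 and 19.8 to 25.3 CPM in MC38. With RG6146, TNF and the combination, 15, 17 and 15 of the 25 tested genes were lower in E0771 and 2 higher each time.

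**Figure D3:**
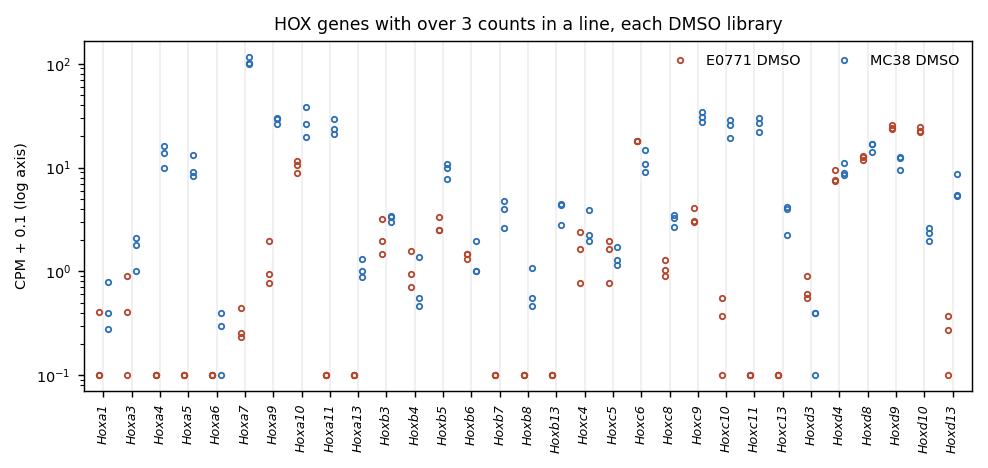
CPM + 0.1 (log axis) of the HOX genes with over 3 counts in at least 1 line, ordered by cluster and number, in each E0771 (red) and MC38 (blue) DMSO library. Points at 0.1 are 0 counts. Hoxa genes and Hoxc9 to Hoxc13 are higher in MC38 where called, and Hoxd9, Hoxd10 and Hoxc6 are higher in E0771.

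Some genes were detected in 1 line only, defined as at most 3 counts over the 3 DMSO libraries of a line and a mean of at least 10 CPM in the other. There were 65 such genes in E0771 and 175 in MC38, 0.462% and 1.24% of the number tested. At the limit, 12 of the 65 and 19 of the 175 had exactly 3 counts in the other line, and a further 11 and 12 genes had 4 and stayed outside. A count of 3 over the group equals 0.134 CPM in MC38 and 0.151 CPM in E0771. The counts depend on these limits. With no count allowed they were 23 and 91, and with a mean of at least 20 CPM they were 25 and 98. Over all 12 libraries of the silent line, at most 3 counts were found for 71 of the 175 MC38 genes and for 0 of the 65 E0771 genes, or 31 of 65 when MC38 combination replicate 2, described above, was left out.

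In E0771 the gene with the most counts in this group was Wfdc2, which encodes a secreted protein with whey acidic protein domains. It had 252, 214 and 232 CPM in E0771 and 3 counts in MC38, a count ratio of 1724-fold (95% exact interval 589 to 8361) for counting error only. Ano1, the gene of a calcium-activated chloride channel, had 59.1, 93.6 and 78.9 CPM against 0 counts and was at least 579-fold higher. The chloride channel gene and Phlda2, an imprinted regulator of placental growth (35.3, 42.6 and 39.8 CPM, at least 293-fold higher), had no read in any MC38 DMSO library. Smpdl3b, which encodes a lipid-modifying phosphodiesterase, had 65.4, 64.7 and 66.4 CPM and 3 counts in MC38, and Abcg1, a cholesterol exporter gene, 47.4, 65.8 and 54.3 CPM and 2 counts. Others were the homeobox gene Dlx2 (51.7, 61.1 and 53.4 CPM), Rundc3a (42.7, 43.1 and 45.9 CPM) and the complement gene C2 (44.2, 38.7 and 44.1 CPM).

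The MC38-only genes described here included transcription factor, matrix and growth-control genes. Sox4, which encodes a transcription factor of progenitor cells, had 305, 262 and 266 CPM in MC38 and 2 counts in E0771. The matrix proteoglycan gene Dcn (decorin) had 216, 214 and 238 CPM and 3 counts, and Grem1, which encodes the secreted BMP antagonist gremlin, 175, 97.8 and 173 CPM and none. Grem1 was thus at least 923-fold higher in MC38, and Shisal2b (209, 213 and 127 CPM, no count in E0771) at least 1233-fold higher. Marcks, a substrate gene of protein kinase C, had 168, 166 and 139.7 CPM in MC38 and 2 counts in E0771. The insulin receptor substrate gene Irs1 (69, 56.6 and 36.7 CPM), the growth arrest gene Gas1 (85.7, 59.5 and 85.1 CPM) and the lactate dehydrogenase subunit gene Ldhb (38.1, 48.2 and 44.2 CPM) had no count in E0771. Armcx2 (93.6, 101 and 119 CPM) and the long noncoding RNA gene Snhg18 (102, 88 and 105 CPM) had 1 count each there.

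Promoter sequences of genes that are on in 1 line and at the floor in the other show how CpG sites, the sites of DNA methylation in mammals, are spread at their starts. RefSeq promoter windows of GRCm38.p6, 250 bases before to 50 after a start, were matched by symbol for 126 of the 175 MC38-only genes and 44 of the 65 E0771-only genes. The median number of CpG sites per window was 24.5 for the MC38-only genes and 13.5 for the E0771-only genes, against 21 for the 9259 tested genes with a window. The 25th to 75th percentiles of these groups were 15 to 30.8, 7 to 21 and 14 to 28 sites. The 200 bases before a RefSeq start are printed for the genes of highest mean level that had a window, with CpG sites in capitals, on the gene's strand: Sox4 at chr13:28953700-28953899 (minus strand), Shisal2b at chr13:104863894-104864093 (minus strand), Wfdc2 at chr2:164562515-164562714 (plus strand) and Ano1 at chr7:144738574-144738773 (minus strand). The Ano1 window lies inside the gene as annotated by GENCODE, whose start on the minus strand is at 144751974 (mm10). No DNA methylation was measured here.
Sox4: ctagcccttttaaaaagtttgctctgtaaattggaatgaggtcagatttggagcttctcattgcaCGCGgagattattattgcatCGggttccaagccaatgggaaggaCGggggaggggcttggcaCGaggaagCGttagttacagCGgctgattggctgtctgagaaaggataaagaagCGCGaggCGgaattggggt
Shisal2b: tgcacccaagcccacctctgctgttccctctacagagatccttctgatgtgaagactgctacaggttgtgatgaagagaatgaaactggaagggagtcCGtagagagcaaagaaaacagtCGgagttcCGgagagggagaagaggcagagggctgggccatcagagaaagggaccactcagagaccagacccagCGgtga
Wfdc2: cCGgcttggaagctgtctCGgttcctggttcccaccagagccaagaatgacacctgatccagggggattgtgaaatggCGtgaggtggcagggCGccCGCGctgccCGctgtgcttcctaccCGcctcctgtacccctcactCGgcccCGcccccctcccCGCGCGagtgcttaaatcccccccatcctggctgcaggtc
Ano1: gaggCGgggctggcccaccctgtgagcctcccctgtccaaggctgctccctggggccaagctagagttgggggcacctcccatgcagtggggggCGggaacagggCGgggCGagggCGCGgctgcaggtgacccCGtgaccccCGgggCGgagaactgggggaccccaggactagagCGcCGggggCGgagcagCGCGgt
Over the whole window Sox4 holds 12 and Shisal2b 8 CpG sites, and Wfdc2 16 and Ano1 18. All 4 lie below the median of the tested genes, and Sox4 and Shisal2b also lie below the 25th percentile of the MC38-only genes.

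Several of these genes were neighbours. Among genes with a mean of at least 1 CPM in either line, 12 runs of at least 3 neighbours had at most 3 counts each in E0771, and 3 such runs had at most 3 counts each in MC38. The longest lay on chromosome X at 37213804 to 37683431 (mm10) and held 14 genes of the Rhox homeobox cluster, which is known from the germline and placenta. They had 3181 counts in E0771 and 6 in MC38. Rhox2h had 29.3, 28.5 and 31.8 CPM in E0771 and none in MC38. Rhox2 and Rhox4 copies are near-identical, so how their reads were shared among copies is uncertain. Rhox5, in the same cluster, had 1159, 1187 and 1236 CPM in E0771 and 901, 1057 and 887 CPM in MC38, so it was high in both. In E0771 the silent runs included Hoxa4 and Hoxa5 with 2 noncoding genes on chromosome 6, Hoxc13, Hotair and Hoxc11 on chromosome 15, and 4 genes on chromosome 4 at 89235699 to 89694772 that include Cdkn2a and Cdkn2b. This last run had 1812 counts in MC38 and 3 in E0771.

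Interferon-stimulated genes were higher in E0771 almost throughout. All 46 listed genes were tested, 42 were higher in E0771 and 2 lower, with a median of 2.17, against 28.9% higher and a median of 0.00 among all tested genes. The labels name no interferon treatment. The antiviral effector gene Rsad2 (viperin) had 738, 731 and 731 CPM in E0771 and 55.7, 52.2 and 78.1 CPM in MC38. Its groups were far apart, and the difference was 3.57 ± 0.15 (adjusted p = 4.86e-15). Irf7, which encodes the factor that amplifies the interferon response, had 73.3, 68.4 and 74.9 CPM against 4.13, 3.76 and 3.17 CPM (4.29 ± 0.21, adjusted p = 7.60e-14). Among antiviral effectors, Ifit1 had 164, 150.0 and 149.7 CPM against 12, 11 and 13.1 CPM, Bst2 (tetherin) 632, 563 and 464 against 59.5, 90.4 and 63.1 CPM, and the ubiquitin-like modifier gene Isg15 378, 382 and 327 against 75.1, 85.5 and 61.8 CPM. Every E0771 library was above every MC38 library for each of these 5. Usp18, which encodes the enzyme that removes ISG15 and limits receptor signalling, was higher by 4.06 ± 0.23.

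Of the genes of the factor complex itself, Stat2 was higher by 1.10 ± 0.22, and Irf9 had 100.3, 88 and 85.7 CPM in E0771 and 39.7, 43.6 and 53.5 CPM in MC38 (adjusted p = 2.17e-06). GTPase genes of the interferon response were higher too, Gbp3 by 3.39 ± 0.21, Gbp7 by 3.09 ± 0.18 and Irgm2 by 2.97 ± 0.37. The exceptions were Ifi27 and Irf1, both lower in E0771. Ifi27 had 19.9, 22.3 and 22.5 CPM against 127, 135 and 140.4 CPM (-2.64 ± 0.14, adjusted p = 3.29e-13), and Irf1, a factor gene raised by interferon gamma, 117, 116 and 122 against 256, 243 and 162 CPM (-0.90 ± 0.17, adjusted p = 9.52e-05). Oas2 (0.69 ± 0.30, adjusted p = 0.0514, or 0.0217 without E0771 replicate 3 and 0.00925 without MC38 replicate 3) and Dhx58 (0.32 ± 0.17, adjusted p = 0.116) were not called. With RG6146, TNF and the combination, 43, 43 and 41 of the 46 were higher in E0771 and 2, 1 and 2 lower.

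**Figure D4:**
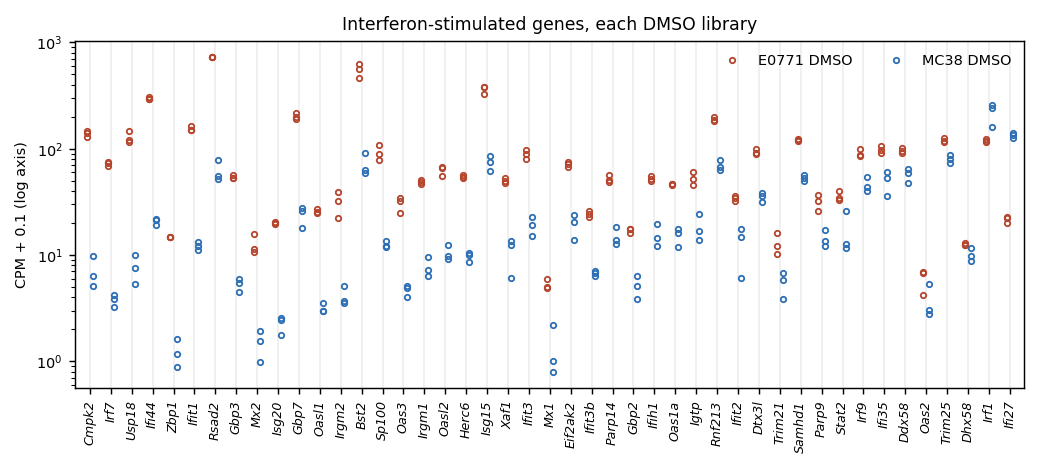
CPM + 0.1 (log axis) of 45 of the 46 interferon-stimulated genes in each E0771 (red) and MC38 (blue) DMSO library, ordered by the log2 difference from Cmpk2 on the left to Ifi27 on the right. Red points lie above blue points for nearly all genes, and Irf1 and Ifi27 at the right edge have the opposite order.

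The promoters of these genes were searched for the response element that the interferon complex binds, since they were called together. Its core was taken as GAAANNGAAA on both strands, any overlapping match counted. RefSeq windows were found for 36 of the 46 genes, and 19 of the 36 (52.8%) held the core, against 3.78% of the 9259 tested genes with a window and 3.44% of all 32851 windows. All 19 were called higher in E0771, and so were 16 of the 17 listed genes whose windows lack the core, Irf1 being the exception. The list holds genes known to respond to interferon, so a high share with the core was likely whatever the difference between the lines. No match lay in the windows of Irf7, Irf9 and Cmpk2, which were called higher as well. The 200 bases before the start of the 4 genes with the core there and the highest mean in E0771 are printed with the core in capitals, on the gene's strand: Rsad2 at chr12:26456453-26456652 (minus strand), Bst2 at chr8:71537473-71537672 (minus strand), Isg15 at chr4:156200819-156201018 (minus strand) and Gbp7 at chr3:142530136-142530335 (plus strand).
Rsad2: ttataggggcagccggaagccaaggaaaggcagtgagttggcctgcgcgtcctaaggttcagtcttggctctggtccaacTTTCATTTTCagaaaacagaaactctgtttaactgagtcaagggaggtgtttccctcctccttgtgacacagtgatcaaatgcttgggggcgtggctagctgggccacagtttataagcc
Bst2: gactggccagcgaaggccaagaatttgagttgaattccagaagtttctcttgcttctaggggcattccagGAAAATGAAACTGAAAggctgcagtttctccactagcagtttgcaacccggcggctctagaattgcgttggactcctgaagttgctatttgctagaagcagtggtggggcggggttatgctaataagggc
Isg15: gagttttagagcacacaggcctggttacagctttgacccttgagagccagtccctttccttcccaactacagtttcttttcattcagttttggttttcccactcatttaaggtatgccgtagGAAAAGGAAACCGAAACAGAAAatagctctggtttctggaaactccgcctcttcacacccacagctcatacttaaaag
Gbp7: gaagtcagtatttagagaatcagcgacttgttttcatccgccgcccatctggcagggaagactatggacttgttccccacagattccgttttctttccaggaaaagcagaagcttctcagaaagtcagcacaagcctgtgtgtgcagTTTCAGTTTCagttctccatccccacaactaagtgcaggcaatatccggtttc
The core begins 120 bases before the start in Rsad2 and 53 bases before it in Gbp7, both times as the reverse complement. Bst2 holds 2 overlapping matches, the first 130 bases before the start, and Isg15 3 overlapping matches, the first 78 bases before it. A match describes these letters only, and binding was not measured.

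Receptors and sensors upstream of these genes did not share the direction of their targets. Of 25 tested, 7 were higher and 6 lower in E0771 (median 0.03), that is 52% called against 58.7% of all tested genes. The type I receptor subunit gene Ifnar2 had 13.2, 12.1 and 12.8 CPM in E0771 and 21.6, 24.5 and 32.9 CPM in MC38, lower by the test (-1.05 ± 0.16), and Ifnar1 was lower too (-0.93 ± 0.35), a call lost without any 1 of the E0771 replicates or without MC38 replicate 3 (adjusted p = 0.0552 to 0.127). The Ifnar1 call was also lost with limma-voom (adjusted p = 0.0586). The DNA sensor gene Cgas was lower in E0771 (34.8, 32.5 and 34.2 against 56.1, 49.1 and 48.4 CPM, -0.60 ± 0.11), and its partner Sting1, listed as Tmem173, had 44.6, 35.9 and 42.5 against 45.8, 50.5 and 55.4 CPM (-0.30 ± 0.15, adjusted p = 0.0793). Sting1 was called lower with a filter of 20 mean counts (adjusted p = 0.0320) or with upper-quartile scaling (adjusted p = 0.0382). RNA sensors belonged to the list of targets, and Ifih1 was higher by 1.77 ± 0.19 and Ddx58 by 0.75 ± 0.12. Adar, which encodes the RNA-editing enzyme that limits sensing of self RNA, had 101, 96.8 and 101 CPM against 30.4, 37.6 and 36.2 CPM (1.52 ± 0.14). Irf8, a factor gene best known from myeloid cells, had 38.5, 24.8 and 31 CPM in E0771 and 0.359, 0.395 and 1.06 CPM in MC38.

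MHC class I genes were split, although many are also interferon targets. Of 24 genes, 8 were higher in E0771, 8 lower and 8 not called (median 0.15). The heavy chain gene H2-K1 had 231, 215 and 199 CPM in E0771 and 764, 1047 and 951 CPM in MC38 and was lower in E0771 (-2.10 ± 0.14, adjusted p = 1.51e-11). The other classical heavy chain gene, H2-D1, had 541, 654 and 623 against 454, 491 and 300.2 CPM and was called higher in E0771 (0.55 ± 0.19, adjusted p = 0.0145). That call was lost without E0771 replicate 2 (adjusted p = 0.0688) or without MC38 replicate 3 (adjusted p = 0.106). The light chain gene B2m had 675, 665 and 622 CPM in E0771 and 588, 664 and 487 CPM in MC38, groups that overlap (0.17 ± 0.13, adjusted p = 0.269).

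Nonclassical class I genes of the Q region were at the floor in E0771. H2-Q7 had 0, 0.671 and 0.170 CPM in E0771 and 175, 232 and 143 CPM in MC38 (-9.17 ± 0.39, adjusted p = 8.38e-15), and H2-Q6 and H2-Q4 were lower as well. H2 genes share long stretches of sequence, so how reads were split among them is uncertain. Genes of peptide transport and loading were higher in E0771 in part. Tap2 was higher by 2.69 ± 0.63, Tapbp (tapasin), with 239, 191 and 225 against 88.2, 101 and 108 CPM, by 1.14 ± 0.18, and Tapbpl by 1.30 ± 0.19. Tap1 had 59.2, 50.6 and 50.7 CPM in E0771 and 31.4, 49.5 and 42.8 CPM in MC38 and fell just short of the threshold (0.37 ± 0.16, adjusted p = 0.0503). Of the immunoproteasome genes, Psmb9 was higher (0.91 ± 0.29) and Psmb8 (-1.01 ± 0.14) and Psmb10 (-0.32 ± 0.13) lower in E0771. Psmb9 lost its call without MC38 replicate 3 (adjusted p = 0.0646), and Psmb10 without any 1 of 5 libraries, all but MC38 replicate 1 (adjusted p = 0.0660 to 0.185). Tap1 was called without MC38 replicate 2 (adjusted p = 0.0124). Class II genes H2-Aa, H2-Ab1, H2-Eb1 and Cd74 did not pass the filter, and their regulator gene Ciita had 0.767, 0.671 and 1.87 CPM in E0771 and 0, 0 and 0.302 CPM in MC38 (3.32 ± 0.95, adjusted p = 0.00535).

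Among the listed ligands that immune cells read on tumour cells, most of those that passed the filter were higher in E0771. Of 25 listed, 13 were tested and all 13 were called. In E0771, 11 were higher and 2 lower (median 1.98), against 28.9% higher and 29.9% lower among all tested genes. The other 12 did not pass the filter. A low gene that passed only through its higher line had to differ, so these counts describe the tested genes alone. Cd274, which encodes PD-L1, was low in both, with 3.07, 4.16 and 3.06 CPM in E0771 and 0.719, 0.395 and 1.51 CPM in MC38 (2.03 ± 0.40, adjusted p = 1.25e-04). Lgals9 (galectin-9) had 45.6, 35 and 36.2 CPM against 3.23, 3.86 and 3.32 CPM (3.47 ± 0.31), and the B7 family gene Cd276 10.7, 10.1 and 10.9 against 2.69, 1.68 and 1.66 CPM (2.42 ± 0.22). Cd47, the gene of the signal against phagocytosis, was higher by 1.59 ± 0.24. Nt5e (CD73), which makes adenosine at the cell surface, had 24.5, 26.2 and 26.4 CPM in E0771 and 0.180, 0 and 0 CPM in MC38, and the death ligand gene Tnfsf10 (TRAIL) 19.6, 14.6 and 14.5 CPM in E0771 and 0.180, 0.395 and 0.453 CPM in MC38. The NKG2D ligand gene Raet1e was higher by 1.90 ± 0.24 and Raet1d by 2.07 ± 0.28. Lower in E0771 were Cd200 (0.153, 0 and 0 against 12.4, 7.61 and 7.09 CPM) and Tnfsf9, the gene of the 4-1BB ligand, with no count in E0771 and 2.69, 0.297 and 3.32 CPM in MC38.

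Chemokine and cytokine genes followed: of 35 listed, 21 were tested, 11 were higher in E0771 and 3 lower (median 0.91). The other 14 did not pass the filter. The monocyte chemokine gene Ccl2 had 143, 192 and 140.0 CPM in E0771 and 60.9, 95.4 and 18.9 CPM in MC38. Its E0771 libraries lay above all MC38 libraries, which spread widely, and the difference was 1.43 ± 0.50 (adjusted p = 0.017). That call was lost without E0771 replicate 2 (adjusted p = 0.0664) and without MC38 replicate 3 (adjusted p = 0.0845). The T-cell chemokine genes Cxcl10 (27, 26.2 and 27.7 against 8.44, 11.4 and 7.24 CPM, 1.55 ± 0.22) and Ccl5 (138, 107 and 123 against 39.5, 51.5 and 47.4 CPM, 1.41 ± 0.18) were higher in E0771. Cxcl1, which attracts neutrophils, had 5.68, 7.12 and 4.59 CPM in E0771 and 9.52, 8.40 and 3.62 CPM in MC38, overlapping (-0.30 ± 0.38, adjusted p = 0.523). Cx3cl1 (fractalkine) had 17.3, 20.9 and 23.8 CPM against 0.898, 1.78 and 1.06 CPM and Spp1 (osteopontin) 599, 623 and 542 against 202, 181 and 173 CPM, both higher in E0771. The alarmin gene Il33 was lower, with 0.153, 0.269 and 0.170 CPM in E0771 and 63.8, 59.7 and 64.6 CPM in MC38 (-8.15 ± 0.37, adjusted p = 2.33e-14), and so was Il34, which encodes a ligand of the macrophage growth factor receptor (43.4, 35 and 44.1 against 89.5, 93.4 and 94.9 CPM).

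The interleukin 6 family gene Lif had 2.15, 1.21 and 2.38 CPM in E0771 and 0.539, 0.198 and 0 CPM in MC38 and was called higher in E0771 (2.96 ± 0.94), but lower there in the TNF libraries (-3.03, adjusted p = 8.26e-05), and the difference of the 2 values passed the test (adjusted p = 0.0176). Cytokine receptor genes were mixed, with 5 higher and 6 lower of 18, that is 61.1% called against 58.7% of all tested genes. The common gamma chain gene Il2rg had 29.5, 29.8 and 29.3 CPM in E0771 and 2.34, 2.37 and 1.81 CPM in MC38, and Il6ra 31.5, 24.2 and 30.6 against 3.59, 1.58 and 5.13 CPM. Il1rl1, the gene of the IL-33 receptor, was lower in E0771, as its ligand gene was, with 7.06, 6.31 and 5.78 against 69.2, 62.7 and 58.1 CPM (-3.30 ± 0.19). Il11ra1 was lower by the same test (-2.21 ± 0.15).

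The TNF pathway, the subject of the study, had genes called in both directions at about the share of all genes. Of 42 genes, all tested, 11 were higher in E0771, 13 lower and 18 not called (median -0.06), that is 57.1% called, near the 58.7% of all genes. The receptor gene Tnfrsf1a had 143, 143 and 156 CPM in E0771 and 94, 121 and 96.5 CPM in MC38 and was higher in E0771 by 0.50 ± 0.11 (adjusted p = 3.90e-04). The second receptor gene, Tnfrsf1b, differed more, with 23.6, 21.6 and 20.6 against 4.13, 3.26 and 4.68 CPM (2.46 ± 0.23, adjusted p = 2.93e-09). Ripk1, the kinase gene of the receptor complex, had 32.2, 28.6 and 34.9 CPM in E0771 and 26.6, 22.3 and 27.8 CPM in MC38 (0.32 ± 0.15, adjusted p = 0.0665), and the adaptors Tradd (-0.09 ± 0.14) and Fadd (-0.16 ± 0.22) were not called either. With library totals in place of TMM scaling, Ripk1 was called higher in E0771 (adjusted p = 0.0442). Traf2 was lower in E0771 (-0.99 ± 0.18).

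Survival genes of the pathway differed at Birc3. This gene of the ubiquitin ligase cIAP2, itself a target of NF-kB, had 0, 1 and 0 counts in E0771 and 29, 66 and 17 counts in MC38, equal to 5.21, 6.53 and 2.56 CPM there. The count ratio was 99.6-fold (95% exact interval 17.5 to 3969), and the fitted difference had adjusted p = 1.77e-07. Its neighbour on chromosome 9, Birc2 (cIAP1), had 11.5, 12.4 and 8.34 CPM in E0771 and 12.9, 11.2 and 13.4 CPM in MC38, overlapping groups (-0.21 ± 0.20, adjusted p = 0.379). Xiap was higher in E0771 by 1.19 ± 0.19. Cflar, the gene of the caspase-8 inhibitor FLIP, had 63.2, 78.3 and 72.6 CPM in E0771 and 67.6, 57.2 and 53.7 CPM in MC38 (0.27 ± 0.13, adjusted p = 0.0866), and passed the threshold without E0771 replicate 1 (adjusted p = 0.0435) or without MC38 replicate 1 (adjusted p = 0.0350). Casp8 itself was lower in E0771, with 10.1, 10.7 and 7.83 against 25.3, 23.1 and 28.7 CPM (-1.42 ± 0.17, adjusted p = 1.91e-07). Ripk3, the kinase gene of necroptosis, was near the floor in both lines (0.921, 0.940 and 0.681 CPM in E0771 and 0.180, 1.19 and 1.36 CPM in MC38), while its substrate gene Mlkl was higher in E0771 by 0.32 ± 0.12, a call lost without E0771 replicate 2 or 3 or MC38 replicate 1 or 2 (adjusted p = 0.0562 to 0.112). The Mlkl call was also lost with no filter (adjusted p = 0.171), a filter of 20 mean counts (adjusted p = 0.0781) or upper-quartile scaling (adjusted p = 0.0700).

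Genes of NF-kB subunits were called in both directions. Rela (186, 176 and 199 against 94.1, 116 and 104 CPM, 0.83 ± 0.13) and Nfkb1 (1.10 ± 0.25) were higher in E0771, and Rel, at 0.95 ± 0.47, was not called (adjusted p = 0.085, or 1.54 and adjusted p = 0.0169 without MC38 replicate 3, and adjusted p = 0.00978 with no filter). Nfkb2, which encodes the subunit p100, had 15.3, 14.2 and 13.4 CPM in E0771 and 41.1, 42.7 and 47.8 CPM in MC38 (-1.61 ± 0.16, adjusted p = 1.09e-08), Relb was lower by the same test (-0.72 ± 0.17), and so were the kinase gene Map3k14 (-1.65 ± 0.24) and Traf1 (8.90, 10.7 and 10.7 against 30.0, 26.9 and 28.5 CPM). Of the inhibitors, Nfkbia had 363, 365 and 324 CPM against 282, 280.3 and 231 CPM (0.41 ± 0.10) and Tnfaip3 (A20) 1.07, 0.806 and 2.04 against 0.359, 0.198 and 0.302 CPM (2.16 ± 0.85, adjusted p = 0.0334). The Tnfaip3 call rests on few reads and was lost without E0771 replicate 3 (adjusted p = 0.138) or without any 1 of the MC38 replicates (adjusted p = 0.0511 to 0.123). It was also lost with limma-voom (adjusted p = 0.0845). Of these genes Nfkb1, Rel, Relb and Map3k14 were named for their role after their values were seen. The endothelial-type adhesion targets of NF-kB went in opposite directions. Icam1 had 1.84, 2.69 and 2.55 CPM in E0771 and 0, 0.0989 and 0 CPM in MC38, higher in E0771, and Vcam1 2.91, 2.42 and 3.23 CPM in E0771 and 108, 119 and 129.6 CPM in MC38, lower in E0771 (-5.38 ± 0.15, adjusted p = 1.59e-17).

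Other cell death genes leaned to MC38, with 13 of 25 lower in E0771 and 5 higher (median -0.42). Gsdmd, the gene of the pore-forming gasdermin D, had 7.82, 8.19 and 5.78 CPM in E0771 and 14.7, 21.6 and 18.6 CPM in MC38 (-1.33 ± 0.20). Among the members higher in E0771 was Bcl2l11, the BH3-only gene BIM, with 73, 80.7 and 73 CPM in E0771 and 8.08, 6.03 and 8.90 CPM in MC38 (3.32 ± 0.15, adjusted p = 2.34e-14). The effector genes Bax (1.01 ± 0.15) and Bak1 (0.79 ± 0.18) and the survival gene Bcl2l1 (1.06 ± 0.16) were higher in E0771 as well, and the survival gene Mcl1 was lower (-0.52 ± 0.14). The death receptor gene Fas had 1.69, 2.55 and 1.53 CPM in E0771 and 1.08, 1.98 and 1.21 CPM in MC38 (0.39 ± 0.43, adjusted p = 0.458).

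The p53 gene and one of its best known targets were higher in E0771. Trp53 had 48.6, 52.8 and 53.9 CPM in E0771 and 24.4, 11.2 and 29.4 CPM in MC38 (1.28 ± 0.28, adjusted p = 4.97e-04), and the cell cycle inhibitor gene Cdkn1a (p21) 253, 220.0 and 239.5 against 18.1, 12.4 and 18.3 CPM (3.89 ± 0.16, adjusted p = 7.49e-15). Each E0771 library was above each MC38 library for both. Targets of p53 did not move together. Of 21 tested, 8 were higher in E0771, 5 lower and 8 not called (median -0.21), that is 61.9% called against 58.7% of all tested genes. The number lower was 3 without E0771 replicate 1 or 3. Gdf15, a stress cytokine gene, had 32.2, 28.2 and 22.6 CPM against 0.898, 1.48 and 0.905 CPM, and Eda2r, a TNF receptor family gene, 0.307, 0 and 0.340 against 14.6, 14.5 and 11.6 CPM. Mdm2, the gene of p53's ubiquitin ligase, stood at -0.21 ± 0.13 (adjusted p = 0.176).

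The Cdkn2a locus was silent in E0771. Cdkn2a, which encodes the inhibitors p16 and p19ARF, had 0 counts in E0771 and 12, 7 and 17 counts (2.16, 0.692 and 2.56 CPM) in MC38. Its neighbour Cdkn2b (p15), on chromosome 4 at 89306299 to 89311039 (mm10), had 0 counts and 27.5, 25.3 and 19.9 CPM, and was at least 160.4-fold higher in MC38. Elavl2, farther along the chromosome, had 1 count in E0771 and 66.8, 69 and 92.6 CPM in MC38. On the other side Mtap, often lost together with Cdkn2a in tumours, was present in E0771 at a lower level, with 128, 119.5 and 131 against 506, 453 and 508 CPM (-1.95 ± 0.09, adjusted p = 3.33e-14). Klhl9, at 0.47 ± 0.23 (adjusted p = 0.0791), was the 1 of the 8 tested genes of this region that was not called. Without MC38 replicate 1, it was called higher in E0771 (adjusted p = 0.0315). RNA counts do not say whether DNA is missing.

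Of 41 cell cycle genes, 16 were higher and 7 lower in E0771 (median 0.25), that is 56.1% called, near the 58.7% of all tested genes. The D-type cyclin gene Ccnd2 had 2231, 1949 and 2017 CPM in E0771 and 646, 468 and 780.1 CPM in MC38 (1.71 ± 0.18), whereas Ccnd1 stood at 0.11 ± 0.11 (adjusted p = 0.364). Genes of mitosis and replication were mixed, with Ccna2 (1.47 ± 0.19) and Mcm5 (0.73 ± 0.13) higher and Mki67 (-1.23 ± 0.25) and Top2a (-0.58 ± 0.17, adjusted p = 0.0581 without MC38 replicate 3) lower in E0771. The inhibitor gene Cdkn1c (p57) had 0.614, 1.21 and 0.681 CPM against 9.52, 6.62 and 11.5 CPM.

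Myc, the oncogene best known among targets of BET inhibitors, had 49.7, 70.1 and 52.4 CPM in E0771 and 9.70, 7.32 and 5.88 CPM in MC38. The difference of 2.92 ± 0.45 (adjusted p = 7.50e-06) exceeded the spread of both groups. Of 25 genes of MYC and ribosome biogenesis 14 were higher and 3 lower in E0771 (median 0.42). Nop2, a nucleolar methyltransferase gene, was higher (363, 292 and 282 against 79, 104 and 95.9 CPM), and Polr1a, the gene of the large subunit of RNA polymerase I, was too (1.33 ± 0.13). Npm1 (nucleophosmin), with 1023, 1035 and 945 CPM against 2115, 2157 and 2011 CPM, and Nop56 (-0.87 ± 0.14) were lower. Of 32 tumour suppressors and oncogenes, 16 were higher and 4 lower in E0771, among the first Ctnnb1, the gene of beta-catenin (1.34 ± 0.11), and among the second the PI3-kinase subunit gene Pik3r1 (-1.02 ± 0.15).

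BET proteins and their elongation partners were in part higher in E0771. Of 17 genes 9 were higher and 3 lower (median 0.50). The BET genes Brd2 (0.66 ± 0.20) and Brd3 (163, 146 and 149 CPM in E0771 and 92.5, 80.6 and 89.7 CPM in MC38, 0.80 ± 0.10) were higher there. The Brd2 call was lost without E0771 replicate 2 (adjusted p = 0.0576) or MC38 replicate 3 (adjusted p = 0.0634). Cyclin T genes went apart, Ccnt1 higher (94.7, 86.7 and 80.1 against 37.2, 28.1 and 41.9 CPM) and Ccnt2 lower (50.3, 52.9 and 52.1 against 115, 102 and 73.8 CPM), while their kinase gene Cdk9 stood at -0.17 ± 0.20 (adjusted p = 0.476). Hexim1, the gene of the inhibitor of that kinase, was higher (1.31 ± 0.15). The testis gene Brdt was detected in MC38 (8.80, 4.75 and 7.39 CPM) and near the floor in E0771 (0.460, 0.134 and 0.170 CPM). Of 20 DNA methylation and Polycomb genes, 10 were higher and 3 lower in E0771, Ezh2 by 0.62 ± 0.18 and Dnmt1 by 0.50 ± 0.12 among the first and Cbx2 (-2.63 ± 0.33) among the second.

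Immediate early genes, which growth and stress signals raise within minutes, were higher in E0771 for 15 of 25 and lower for 4 (median 1.01). Ier3 had 1599.9, 1291 and 1305 CPM in E0771 and 208, 246 and 239 CPM in MC38 (2.60 ± 0.12, adjusted p = 6.10e-14), and the AP-1 gene Jund 90.8, 86.7 and 94.1 against 7.73, 10.6 and 11.2 CPM (3.19 ± 0.17). Egr1, often used as the readout of ERK signalling, was almost absent in E0771, with 0.307, 0.403 and 0.170 CPM against 48.7, 35 and 30.9 CPM (-6.89 ± 0.32, adjusted p = 4.68e-14). The AP-1 gene Jun was lower too (-0.87 ± 0.11).

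Matrix genes divided between the lines, with 17 of 35 higher in E0771 and 15 lower, so that 3 were not called. Genes of basement membranes were among those higher in E0771: Lama5 had 29.8, 28.7 and 25.3 CPM and 1 count in MC38, Nid1 was higher by 3.71 ± 0.38, and the collagen IV genes Col4a1 (1.04 ± 0.12) and Col4a2 (1.46 ± 0.15) followed. Fbln2 (fibulin-2) had 71.2, 68.5 and 71.6 CPM in E0771 and 0, 0.297 and 0.151 CPM in MC38. Genes of interstitial matrix were among those higher in MC38. Next to Dcn and Fn1, described above, the proteoglycan gene Vcan (versican) had 0.614, 0.403 and 0.510 CPM in E0771 and 79, 67 and 84.3 CPM in MC38 (-7.20 ± 0.25, adjusted p = 4.01e-16), and the collagen gene Col3a1 65.2, 62 and 61.9 against 264, 222 and 235 CPM (-1.93 ± 0.17). Dcn and Col3a1 are also among 9 listed fibroblast markers, which summed to 107 to 111 CPM in E0771 and 499 to 554 CPM in MC38. Of the 4 tested markers 3 were lower in E0771, these 2 and Pdgfra (-0.78 ± 0.20), a growth factor receptor gene, and Pdgfrb was not called. Col1a1 and Col1a2, the collagen I genes of fibroblasts, had at most 4 counts per line, and Lum, Thy1 and Fap did not pass the filter either. The part of other cells in these differences was not tested. Sparc, a matrix-binding protein gene, was higher in E0771 (882, 669 and 632 against 261, 288 and 363 CPM).

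Genes of proteases and adhesion receptors were called in both directions. The gelatinase gene Mmp9 had 2.91, 3.22 and 2.89 CPM in E0771 and 66.5, 65.9 and 41 CPM in MC38, and the sheddase gene Adam8 1.23, 1.88 and 1.02 against 65.9, 73.6 and 51.6 CPM, both lower in E0771. Over the protease list 10 of 27 were higher (37.0%) and 9 lower (33.3%), with a median of -0.01. Of all tested genes 28.9% were higher and 29.9% lower. Of 22 integrin and adhesion genes 11 were higher in E0771 and 5 lower. Itga6, the gene of a laminin-binding integrin chain, had 229, 237 and 201 CPM in E0771 and 24.4, 18.7 and 17 CPM in MC38 (3.48 ± 0.22, adjusted p = 5.90e-12). L1cam was higher too (15.3, 14.8 and 12.4 against 0.359, 0.395 and 0.603 CPM), and Ncam1 was lower (0.767, 1.07 and 0.340 against 66.5, 67.9 and 79.6 CPM).

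Growth factor receptor genes were divided, 9 higher and 11 lower of 25. The EGF receptor gene Egfr had 2.91, 3.76 and 3.23 CPM in E0771 and 27.5, 20.7 and 24.4 CPM in MC38 (-2.85 ± 0.22, adjusted p = 1.74e-10), and Tyro3 38.8, 31.8 and 36.9 against 101, 116 and 107 CPM. The collagen receptor gene Ddr1 (164, 176 and 175 against 43.7, 54.7 and 41.2 CPM) and the insulin-like growth factor receptor gene Igf1r (1.69 ± 0.19) were higher in E0771. Of 10 tested ligand genes 5 were lower in E0771 and 1 was higher (2 without MC38 replicate 2). Fgf7 had no count in E0771 and 14.7, 10.1 and 16 CPM in MC38, Bdnf 1.53, 1.34 and 0.851 against 68.4, 55.3 and 57.9 CPM, and the EGF family gene Btc was the member higher in E0771 (18.9, 13 and 15.1 against 1.98, 0.791 and 1.06 CPM).

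Notch genes were higher in E0771 for 8 of 11 tested genes and lower for none (median 2.13). The other 8 of the 19 listed did not pass the filter. Notch1 had 26.1, 27.3 and 27.7 CPM in E0771 and 7.73, 4.35 and 6.64 CPM in MC38 (2.15 ± 0.22), and Notch2 56, 63.8 and 60.2 against 8.98, 8.01 and 4.53 CPM (3.06 ± 0.28, adjusted p = 2.82e-09). The target gene Hes1 was higher by 0.89 ± 0.25, and the nuclear mediator gene Rbpj stood at -0.11 ± 0.10 (adjusted p = 0.379). With a mean of at least 20 counts as the filter, 3 members were called higher. WNT genes were mixed, 12 higher and 7 lower of 21. The ligand gene Wnt7b had 217, 222 and 228 CPM in E0771 and 62.7, 78.1 and 63.7 CPM in MC38 (1.70 ± 0.20), Wnt5a 2.61, 3.22 and 1.70 against 21.4, 15.3 and 19 CPM, and the receptor gene Fzd2 0.153, 0.403 and 0 against 16.5, 15.5 and 12.7 CPM. In the TGF-beta and BMP list 14 were higher and 9 lower of 29. The BMP targets Id1 (2.64 ± 0.23), Id2 (2.42 ± 0.27) and Id3 (1.10 ± 0.31) and Smad7 (2.52 ± 0.22) were higher in E0771. The ligand gene Bmp2 had no count there and 12.9, 10.5 and 13.3 CPM in MC38, the line that also held the antagonist Grem1.

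Glycolysis and hypoxia genes were higher in E0771 for 19 of 28 and lower for 4 (2 without MC38 replicate 3; median 0.69). The platelet-type phosphofructokinase gene Pfkp had 148, 112 and 123 CPM in E0771 and 12.9, 13.2 and 14.2 CPM in MC38 (3.24 ± 0.22, adjusted p = 2.80e-11). Hif1a, the gene of the oxygen-regulated factor, was higher (427, 389 and 386 against 119.8, 103 and 136 CPM, 1.74 ± 0.11), with the hexokinase gene Hk2 (1.77 ± 0.15), the lactate transporter gene Slc16a1 (2.46 ± 0.18) and Ldha (1.27 ± 0.10). The other lactate dehydrogenase gene, Ldhb, was among the MC38-only genes. Sterol and fatty acid synthesis genes had the opposite lean, 14 of 20 lower in E0771 and 4 higher (median -0.52).

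The citrate lyase gene Acly had 50.5, 40.3 and 46.4 CPM in E0771 and 283, 288 and 257 CPM in MC38 (-2.60 ± 0.14, adjusted p = 4.54e-13). The regulator gene Srebf2 (1.29 ± 0.25) was higher in E0771, and the enzyme genes Hmgcs1 (-1.34 ± 0.11) and Fdft1 (-2.30 ± 0.18) lower. Among 29 NRF2 and glutathione genes, 13 were lower in E0771 and 10 higher. The cystine transporter gene Slc7a11 had 12.4, 12.8 and 9.53 against 60.7, 52.8 and 52.5 CPM and the sulfiredoxin gene Srxn1 149, 136 and 126 against 419.7, 486 and 389.6 CPM, lower in E0771, and Hmox1 107, 78.8 and 70.3 against 10.6, 17.2 and 14 CPM, higher. Of 12 tested drug transport and metabolism genes 8 were lower and 3 higher in E0771, with Abcg2 (50.9, 52.5 and 51.2 against 8.26, 9.29 and 11.2 CPM) and Abcc4 (60.3, 49.8 and 54.3 against 6.83, 6.92 and 7.84 CPM) higher in E0771 and Abcb1b (-1.47 ± 0.28) lower.

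Imprinted genes, of which 1 parental copy is silenced, were on in one line and off in the other for some members. Of 28 listed, 11 were tested, 4 were higher and 5 lower in E0771. H19 had no count in E0771 and 30.9, 30.0 and 47.2 CPM in MC38 (at least 234-fold higher), while Igf2, its neighbour, had at most 2 counts in any library. Grb10 had no count in E0771 and 65.4, 77.1 and 55.4 CPM in MC38, Phlda2 was the reverse, as given above, and Igf2r had 16.6, 22.8 and 15 against 0.539, 0.198 and 1.36 CPM. Among germline and placental genes 11 of 34 were tested and 7 were lower in E0771, 6 of them of the Xlr and Prl2c families, whose copies are near-identical. Rhox5 was the 1 called higher, a call lost without MC38 replicate 1 (adjusted p = 0.0522) or 3 (adjusted p = 0.0616), and 2 were called higher without E0771 replicate 1. Xist, the RNA gene that silences an X chromosome in female cells, had no count in E0771 and 1, 0 and 1 counts in MC38, and none of the 8 listed genes of the sex chromosomes passed the filter.

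Markers of leukocytes and endothelium were set beside these results. The leukocyte gene Ptprc had 0, 0.537 and 1.02 CPM in E0771 and 0, 0.395 and 0.754 CPM in MC38, Itgam 1.07, 0.671 and 1.19 CPM in E0771 and 1.44, 1.88 and 1.51 CPM in MC38, neither was called, and Cd3e, Csf1r and Adgre1 did not pass the filter. The 18 leukocyte markers summed to 199 to 259 CPM in E0771 and 62.9 to 72.5 CPM in MC38, most of it from Arhgdib (241, 178 and 212 CPM in E0771 and 57.7, 64.3 and 54.8 CPM in MC38). Of 8 tested, 3 were higher in E0771 (5 without MC38 combination replicate 2) and 0 lower. Among the 3 were Arhgdib (1.84 ± 0.23) and Cd68. Cd68 had 4.91, 6.18 and 5.61 CPM in E0771 and 0.539, 1.68 and 1.21 CPM in MC38 (2.18 ± 0.40). The part of other cells in the differences above was not tested. Endothelial markers summed to 48.2 to 48.5 and 21 to 23.7 CPM, with Pecam1 at 9.82, 10.5 and 10.4 CPM in E0771 and 0.359, 1.09 and 1.06 CPM in MC38, and Kdr, Tek, Tie1 and Emcn not tested. Of the 5 tested endothelial markers 4 were higher in E0771 and 1, Esam, was lower. The Esam call was lost without E0771 replicate 3 or without any 1 of the MC38 replicates (adjusted p = 0.0586 to 0.162). The 13 mitochondrially encoded genes gave 3 higher, 4 lower and 6 not called, that is 53.8% called against 58.7% of all tested genes. They ranged from mt-Cytb at -1.80 ± 0.14 to mt-Co3 at 0.74 ± 0.13. Next to these values stands the low mitochondrial ribosomal share of MC38 replicate 2 given above.

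Line differences were also read along the chromosomes. The median difference of the tested genes was highest on chromosome 12 (0.43), followed by 6 (0.36), 3 (0.35) and 8 (0.31), and lowest on chromosome 4 (-0.31), followed by 19 (-0.24) and 11 (-0.23). Over the 9 pairs of an E0771 and an MC38 library, which share libraries, the median of chromosome 12 ranged from 0.33 to 0.48 and that of chromosome 4 from -0.41 to -0.24. On chromosome 12, 46.7% of 458 tested genes were called higher in E0771 and 20.3% lower, against 15.7% and 42.8% of 942 genes on chromosome 4. The 25th to 75th percentiles of every chromosome spanned 0, so each chromosome held genes of both directions. In the libraries with RG6146, TNF and the combination the medians were 0.34, 0.31 and 0.24 for chromosome 12 and -0.40, -0.39 and -0.38 for chromosome 4. With no filter on low counts the DMSO medians were nearer to 0, at 0.092 and -0.048.

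**Figure D5:**
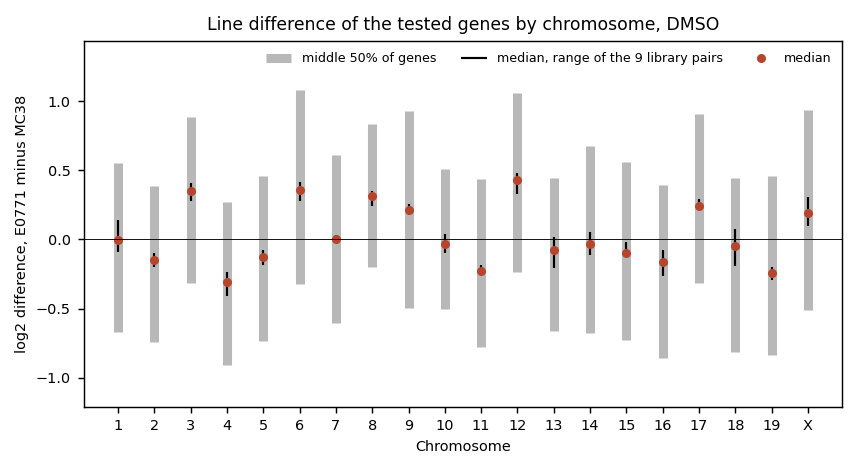
Median log2 difference (E0771 minus MC38) of the tested genes on each chromosome with DMSO (red points), the range of that median over the 9 pairs of libraries (black lines) and the 25th to 75th percentiles of the genes (grey bars). Chromosomes 12, 6, 3 and 8 lie highest and chromosomes 4, 19 and 11 lowest.

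Within chromosomes, running medians over 51 neighbouring genes with at least 10 CPM in either line went further. The highest value was 1.31, on chromosome 9 at 21133222 to 35507652 (mm10) from Cdc37 to Cdon, where 37 of 51 genes were called higher in E0771 and 5 lower. The lowest was -0.92 on the same chromosome at 40800984 to 50659780, from Hspa8 to Dlat, with 31 genes lower and 5 higher. The sign of the running median thus changed within one chromosome. A stretch of chromosome 15 at 31601852 to 55090491 had a running median of -0.85, with 41 of 51 genes lower in E0771 and none higher. In the other treatments the running medians of the chromosome 9 stretches were 0.99, 1.17 and 0.84 for the first and -0.81, -0.93 and -0.79 for the second, with RG6146, TNF and the combination. DNA copy number was not measured.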

How the data were processed

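The deposited table holds read counts per gene for 24 libraries, not normalized. Per the submitters' processing notes the authors used bcl2fastq 2.17.1.14, cutadapt 1.14, HISAT2 2.1.0 and featureCounts (Subread 1.5.2) with mm10. The strand setting is not given in the sources used here, so where a gene's exon is overlapped by an exon on the other strand (Krt8, Cdkn1a, Sox4, Irf7, Cxcl10 and Icam1 are such genes), counts can include reads of that neighbour. Reads from 3′ ends were not divided by length, so levels were compared between lines, not between genes.

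Genes kept by filterByExpr were scaled by TMM and tested with edgeR 4.0.16 (quasi-likelihood, two-sided) on all 24 libraries in 8 groups. SE is the size of the log2 difference over the square root of F. DESeq2 1.42.0 and limma-voom (limma 3.58.1), other scalings, filters and left-out libraries were alternatives. The test was also run on simulated counts in which far fewer genes differed than were called here. That run therefore does not cover a comparison in which most genes differ. Bounds are set against 3 counts over a group, and intervals (95%, exact) cover counting error only. Same-numbered replicates of the 2 lines had correlations of -0.22, 0.12 and -0.10, so the numbers were not taken as pairs. Symbols and mm10 coordinates are from GENCODE vM21.

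Members and lists were chosen with earlier results of these data known. Genes were named by a rule: the 12 largest differences each way among called genes whose groups did not overlap (mean count 20 or more), in every list the 2 called genes of smallest p each way, the 8 highest genes detected in 1 line only, and a fixed set. Some genes are not reported here, not all genes of the rule are described, and other genes were named for their known role after their values were seen.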

Additional observations from a re-analysis of the deposited data

Results flagged for a closer look

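Lif, the gene of an interleukin 6 family cytokine, changed the order of the lines between treatments. The difference of E0771 minus MC38 was 2.96 with DMSO and -3.03 with TNF, and edgeR's test of the change between both passed the threshold (adjusted p = 0.0176). With DMSO it rests on 37 counts in E0771 and 5 in MC38.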

How the results depend on the processing

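The number of called genes was 8257 of 14058 tested in the main test. It lay between 5817 of 10180 (without genes that have an exon on the opposite strand) and 8741 of 27027 (no filter). With no filter, the called genes were thus a smaller share of those tested. The number called was 2894 when a 2-fold difference was itself tested (glmTreat), for both the called and the 2-fold count. Without 1 library it was 7595 to 8306, and 4421 to 4606 for 2-fold differences. With the replicate number as a block it was 8286. In the 6 DMSO libraries alone it was 7461, and 6872 there with the block. Genes detected in E0771 only numbered 23 with no count allowed, 105 with at most 10 counts, 113 and 25 with at least 5 or 20 CPM, 0 over all 12 MC38 libraries and 31 over 11. Those in MC38 only numbered 91, 285 (5 CPM), 98 (20 CPM) and 71 (12 libraries). The median of chromosome 4 was -0.048 with no filter, and that of chromosome 12 was 0.092 with no filter, 0.37 with a mean of at least 20 counts and 0.37 to 0.47 without 1 library. Of 243 named genes with a test, 218 kept direction and side of the threshold, 12 lost and 8 gained a call, and 5 that were never called changed sign: Esr1 (-0.122 to 0.236 without 1 library), Fadd (-0.317 to 0.0538), Pdgfrb (-0.0412 to 0.376), Ptprc (-0.465 to 0.973) and Ripk3 (-0.552 to 0.115, and 0.139 with limma-voom). Many of the 243 genes were named for a large difference or a small p in these same data, so their calls were likely to hold. The share that held among all tested genes is not given. Some further calls moved with scaling, filter or test. Oas2 and Tap1 were called with library totals or limma-voom (adjusted p = 0.0321 to 0.0453), and Klhl9 with no filter (adjusted p = 0.0380). Psmb10 was not called with library totals (adjusted p = 0.0507) or no filter (adjusted p = 0.0746), nor Rhox5 with no filter (adjusted p = 0.0597). Leaving out MC38 combination replicate 2, the limit over 11 libraries and the block in the 6 libraries were chosen after seeing the data. The cause of these changes was not tested, except that stricter limits and filters leave fewer genes. Depth limits statements on genes below about 3 counts per group.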
